A study of Saccharomyces cerevisiae and Saccharomyces paradoxus with 16 samples.

Results

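The cryptic unstable transcripts (CUTs) of the *Saccharomyces cerevisiae* laboratory strain S288c were examined here, that is, the regions that the study called from RNA-seq of an *rrp6*Δ mutant and its wildtype (WT). All rows of the S288c annotation were taken, which gave 2055 CUTs of the 9377 called in 4 yeast strains, with 1000 reading along the plus strand and 1055 along the minus. Strand-specific poly(A) RNA libraries were made from cells grown in rich medium (YPD) at mid-log phase, with 2 *rrp6*Δ libraries and 2 WT libraries of S288c among the 16 libraries of the series. The *rrp6*Δ strain carried rrp6::KanMX with his3Δ1, leu2Δ0, ura3Δ0 and met15Δ0. The WT strain carried his3Δ1, lys2Δ0, leu2Δ0 and ura3Δ0. The deletions of *HIS3*, *LEU2* and *URA3* were thus shared, whereas *MET15* was deleted only in the mutant, *LYS2* only in the WT, and the strain list of the study gives the mutant as MATa and the WT as MATα. The methods of the study name the WT as BY4741, a MATa strain that carries *LYS2*, and the genotype of the labels was followed here. In 1 library of each genotype poly(A) RNA was selected with a single round of Oligotex, and in the other with repeated rounds of Dynabeads.

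Each CUT has a single *rrp6*Δ value and a single WT value, which are the authors' means over the 2 libraries of a genotype and over the nucleotides of the CUT. They are in units of normalized read coverage, meaning reads over a nucleotide after scaling to the number of mapped reads. No value per library was analysed, so no spread between replicates, no interval from replicates and no test can be given for any difference below. The files give no counts, and library depth was not used here. The *rrp6*Δ/WT ratios below were calculated as (*rrp6*Δ coverage + 1)/(WT coverage + 1). The CUTs were themselves called on regions of elevated *rrp6*Δ coverage relative to WT, so that the ratio of a CUT describes it and is no independent evidence of its direction.

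Rrp6 is a 3′ to 5′ exonuclease of the nuclear exosome. In yeast, the RNA-binding proteins Nrd1 and Nab3 and the helicase Sen1 end transcription of many short noncoding RNAs, the TRAMP complex adds a short poly(A) tail to them, and the exosome then degrades them. CUTs are RNAs of this kind that can be seen mainly when the exosome is impaired. Many begin in the nucleosome-depleted regions of promoters and run away from the neighboring gene, across it in antisense, or toward it in sense. The same machinery trims or degrades the precursors of stable noncoding RNAs and removes unspliced pre-mRNAs and excised introns.

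The sequences below were read from the RefSeq copy of the S288c R64 genome at the annotated coordinates, 5′ to 3′ on the strand of the CUT. Capitals mark the core Nrd1 motifs GTAA and GTAG and the core Nab3 motif TCTT. They were chosen because the CUTs they come from carry the results that follow. The first pair are the last 100 bases of CUTs antisense to *SIF2* (chrII:448765-448864, minus strand) and *MLS1* (chrXIV:406413-406512, minus strand). The other 5 are the 30-base windows that hold the most motifs in the CUTs upstream of *URA2* (chrX:172976-173005, minus strand), *ADE12* (chrXIV:234244-234273, plus strand) and *URA8* (chrX:620604-620633, plus strand), downstream of *RPL9B* (chrXIV:500556-500585, plus strand) and between *BET3* and *MET1* (chrXI:571212-571241, minus strand).
CUT1397: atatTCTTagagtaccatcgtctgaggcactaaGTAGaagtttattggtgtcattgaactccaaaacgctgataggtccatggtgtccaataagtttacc
CUT1650: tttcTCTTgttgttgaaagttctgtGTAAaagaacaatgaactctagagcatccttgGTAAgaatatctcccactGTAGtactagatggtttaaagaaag
CUT2006: TCTTtcctaatggTCTTgtatttttaTCTT
CUT1974: GTAAttTCTTttTCTTactagTCTTtTCTT
CUT1821: gttccccccctgcctttTCTTCTTtaTCTT
CUT1953: tacaaatgatttTCTTtttTCTTgagTCTT
CUT2003: aTCTTtactgttgctGTAGttgtgatttct

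Most S288c CUTs had low coverage in the mutant and lower coverage still in the WT. Coverage in *rrp6*Δ ranged between 1.40 and 908, with a median of 5.56 and quartiles of 3.50 and 9.58. WT coverage ranged between 0 and 363, with a median of 0.73 and quartiles of 0.33 and 1.62, and it was under 1 at 1266 CUTs (61.6%). The ratio had a median of 3.34, with quartiles of 2.76 and 4.45, and a largest value of 29.5. Of the 2055 CUTs, 2035 (99%) had a ratio of 2 or more, 651 (31.7%) a ratio of 4 or more, and 90 (4.38%) a ratio of 8 or more. Coverage was higher in *rrp6*Δ at 2054 of the 2055 CUTs.

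**Figure D1:**
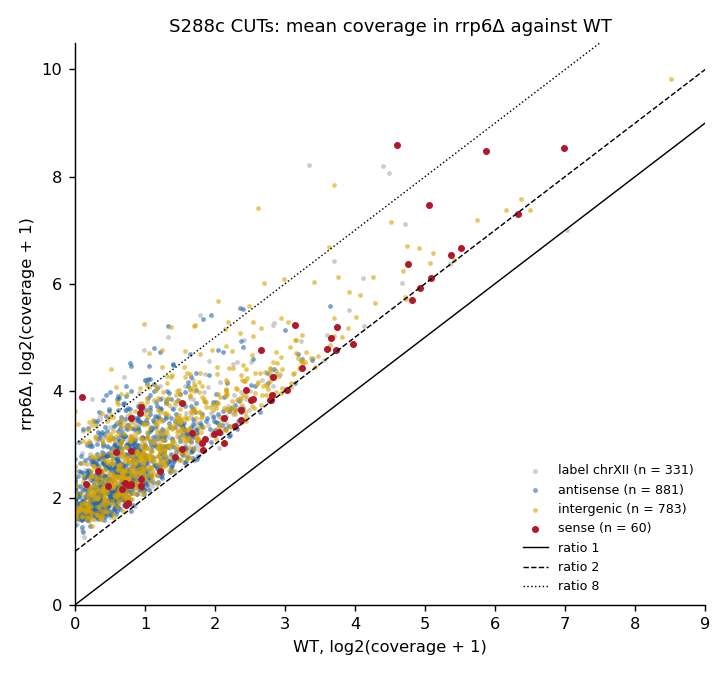
Each point is 1 S288c CUT, with log2(coverage + 1) in WT on the x axis and in *rrp6*Δ on the y axis, both as the authors' mean over 2 libraries, and lines at ratios of 1, 2 and 8. Colors give the position relative to open reading frames, with the 331 CUTs labelled chrXII in gray, and nearly all points lie above the line for a ratio of 2.

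Coverage in *rrp6*Δ and in WT followed each other across CUTs (Spearman's rho 0.78, Pearson's r of the log2 values 0.85, n = 2055 CUTs), which share the same 4 libraries. CUTs were called only where *rrp6*Δ coverage was raised over WT, which ties both values together, so the correlation is a description only. The 64 CUTs listed at 0 in WT were also low in the mutant, with *rrp6*Δ coverage of 1.82 to 11.3 and a median of 2.84. At the other end, 58 CUTs had WT coverage of 10 or more, with a median of 69.1 in *rrp6*Δ and 21.6 in WT and a median ratio of 2.55. The 20 CUTs with a ratio under 2 had a median coverage of 10.4 in *rrp6*Δ and 4.85 in WT.

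CUTs were short transcripts of 101 to 4396 nt, with a median of 400 nt and quartiles of 245 and 661 nt. The median ratio was similar in long and short CUTs with the pseudocount of 1. In the longest 25% of CUTs its median was 3.38 and in the shortest 25% it was 3.32, and rho between length and ratio was -0.038 (n = 2055 CUTs). The median *rrp6*Δ coverage was 6.47 among the longest 25% and 4.56 among the shortest 25%. With a pseudocount of 0.1 the difference in median log2 ratio, longest minus shortest, was -0.33, against 0.024 with 1. The strands were alike at the median, with a ratio of 3.32 for plus-strand and 3.36 for minus-strand CUTs, although 31 plus-strand and 59 minus-strand CUTs reached a ratio of 8. No replicate error is at hand to set beside these differences.

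CUTs lay on every chromosome that could be used for position. The annotation has 331 CUTs labelled chrXII and none labelled chrXIII. Of the 331, 21 end past the length of chromosome XIII (924431 bp) and so can lie only on XII, and 310 could lie on either. Over the lengths of XII and XIII together the 331 CUTs amount to 165 per Mb, against 171 per Mb over the other 14 chromosomes. When they were set on XII, 19.9% had most of their length in sense within an open reading frame (ORF), and when those that could were set on XIII it was 21.9%, against 3.48% on the other chromosomes. The 331 CUTs had a median coverage of 5.13 in *rrp6*Δ and 0.74 in WT and a median ratio of 3.20. They were kept for coverage and were left out of every result on genes and positions, which use the 1724 CUTs and 5010 ORFs of the other 14 chromosomes unless stated. The 992 ORFs on XII and XIII were therefore not assessed.

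Density ranged between 115 per Mb on chromosome VI, 117 on I and 149 on II at the low end, and 196 on V and 201 on X at the high end, while the median ratio per chromosome stayed between 3.23 and 3.47. CUTs were sparse near chromosome ends. Over the 28 ends, the outermost 10 kb held 14 CUTs, or 50 per Mb, the next 10 kb held 125 per Mb and the 10 kb after that 150 per Mb. In all, 91 CUTs lay within 30 kb of an end, a density of 108 per Mb, against 177 per Mb in the remainder. Reads had to map uniquely and the ends carry repeated gene families, and the part of mapping in the low density was not tested. The CUTs that were called near ends had a median coverage of 5.68 in *rrp6*Δ and 0.69 in WT and a median ratio of 3.47. Within 10 kb of a centromere there were 47 CUTs, or 168 per Mb, against 171 per Mb elsewhere.

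**Figure D2:**
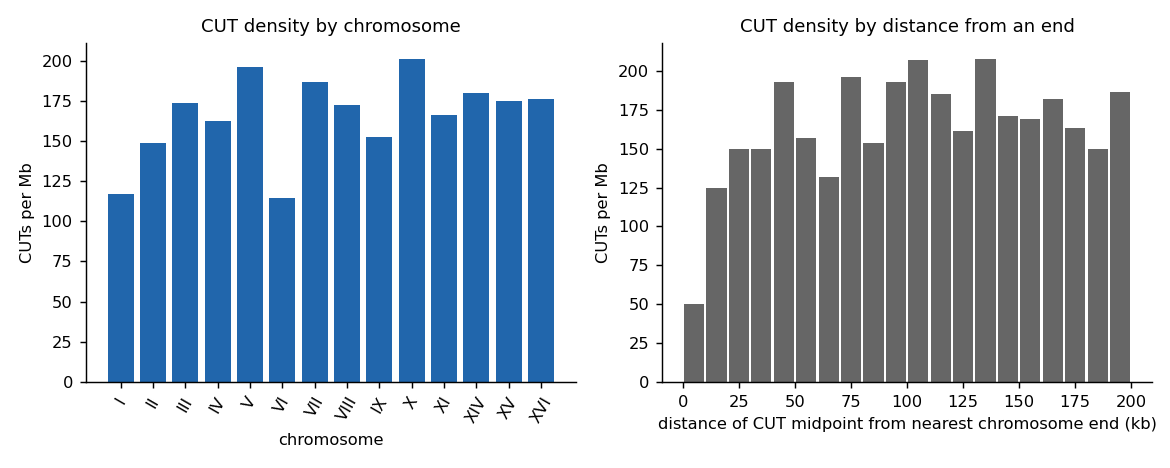
Bars give S288c CUTs per Mb, on the left for each of the 14 chromosomes used and on the right by distance of the CUT midpoint from the nearest chromosome end in bins of 10 kb. Chromosomes VI and I had the lowest densities (115 and 117 per Mb), and the 10 kb next to an end held 50 per Mb.

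By position, 881 CUTs (51.1%) had most of their length antisense to an ORF, 783 (45.4%) were mainly intergenic and 60 (3.48%) were mainly in sense within an ORF. Antisense CUTs were longer and lower, with a median length of 508 nt and median coverage of 4.86 in *rrp6*Δ and 0.57 in WT. Intergenic CUTs had medians of 325 nt, 6.57 in *rrp6*Δ and 0.96 in WT. The median ratio was almost the same, at 3.38 for antisense and 3.39 for intergenic CUTs. The difference in median log2 ratio between antisense and all other CUTs was 0.0096 with a pseudocount of 1, but 0.37 with 0.1 and -0.092 with 10. Sense CUTs were the most highly covered in both genotypes, with medians of 11.7 in *rrp6*Δ and 3.61 in WT, and had the smallest median ratio, 2.51.

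**Figure D3:**
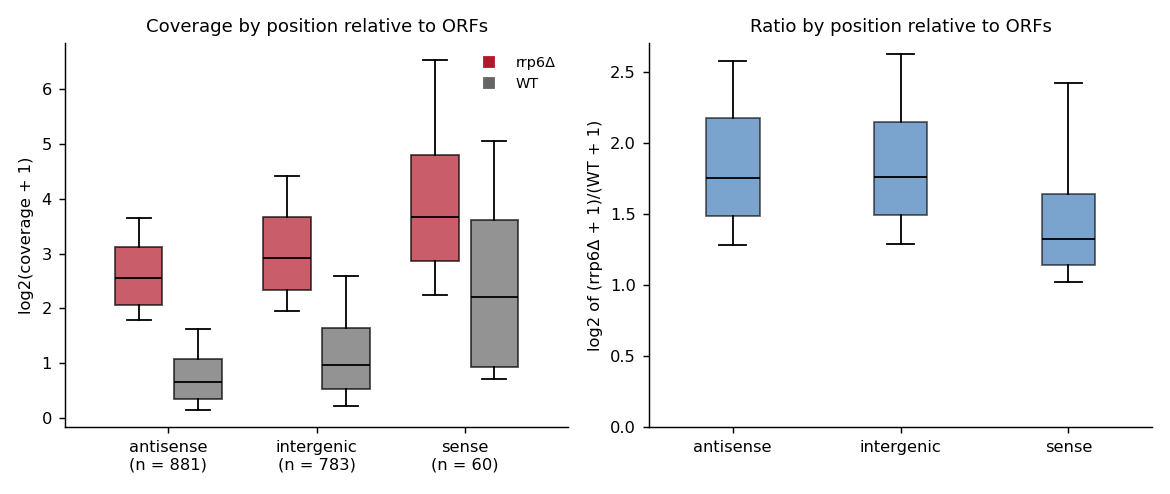
The left panel shows log2(coverage + 1) in *rrp6*Δ (red) and WT (gray), and the right panel log2 of the ratio, for antisense (881), intergenic (783) and sense (60) CUTs. Boxes span the quartiles with the median as a line and whiskers reach the 10th and 90th percentiles over CUTs, and sense CUTs sit highest in coverage and lowest in ratio.

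CUT starts clustered at set distances from genes. A CUT was called divergent to an ORF where it began within 500 bp upstream of the start codon on the opposite strand. There were 935 such CUTs (54.2%), and they were divergent to 947 ORFs, or 18.9% of the 5010. Their starts lay a median of 273 bp from the start codon, with quartiles of 210 and 357.5 bp, and the bins of 200 to 250 bp and 250 to 300 bp held 176 and 173 CUT-ORF pairs, while no bin of 50 bp in the first 250 bp inside the ORF held more than 16. Divergent CUTs had a median coverage of 5.56 in *rrp6*Δ and 0.66 in WT, a median ratio of 3.56, and a ratio of 4 or more in 38.0%. The 400 CUTs that stood in none of the 4 relations to a gene described here had medians of 4.95 in *rrp6*Δ and 0.76 in WT, a median ratio of 3.14, and a ratio of 4 or more in 22.3%. CUTs in the antisense, upstream and sense relations described below had median ratios of 3.46, 3.42 and 2.83. With the pseudocount of 1 the ratio rose with *rrp6*Δ coverage across CUTs (rho 0.38, n = 2055 CUTs). These contrasts between relations were not run with another pseudocount.

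Antisense CUTs often began near the 3′ end of the gene they crossed. A CUT covering at least 25% of an ORF on the opposite strand was found for 675 ORFs (13.5%), in 677 pairs. In 532 of the 677 pairs the CUT began between 200 bp before and 300 bp after the stop codon. The median start over the 677 pairs was 32 bp past it. Counting all opposite-strand CUT-ORF pairs, whatever share of the ORF was covered, the bin of 0 to 50 bp past the stop held 185 pairs. Among the 677 antisense pairs the median share of the ORF covered was 60.4%, with quartiles of 38.2% and 90.4%. From end to end, 117 ORFs were covered. Antisense and divergent positions were often those of the same CUT: 400 CUTs crossed one gene and began upstream of the start codon of another on the opposite strand, with a median ratio of 3.65. CUTs beginning within 600 bp upstream of an ORF on its own strand were fewer, at 245 CUTs and 246 ORFs (4.91%), and shorter, with a median of 270 nt. Their coverage had medians of 7.66 in *rrp6*Δ and 1.26 in WT. CUTs covering at least 25% of an ORF in sense were found for 62 ORFs (1.24%).

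**Figure D4:**
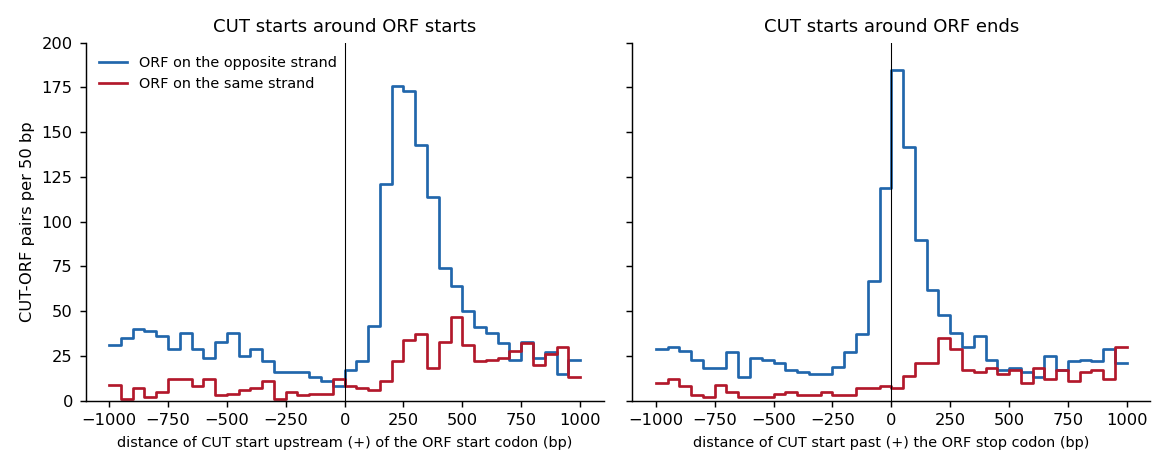
Lines count CUT-ORF pairs in bins of 50 bp by the distance of the CUT start upstream of the ORF start codon (left) or past the ORF stop codon (right), for ORFs on the opposite strand (blue) and the same strand (red). The opposite-strand counts peak at 200 to 250 bp upstream of start codons, with 176 pairs, and at 0 to 50 bp past stop codons, with 185 pairs.

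The CUT with the highest coverage in both genotypes was CUT2012 (chrV:441657-443078, plus strand), which contains the whole of *SCR1*, the RNA of the signal recognition particle. Its coverage was 908 in *rrp6*Δ and 363 in WT, a ratio of 2.50. Other stable RNAs made by their own genes were also inside CUTs on their own strand. *RPR1*, the RNA of nuclear RNase P, was within CUT1999, with 140 in *rrp6*Δ and 21.7 in WT (ratio 6.21). *TLC1*, the RNA template of telomerase, was within CUT1992, with 93.5 in *rrp6*Δ and 33.4 in WT (ratio 2.75). Small nucleolar and spliceosomal RNAs had been filtered out by the authors, yet both genes of the U3 RNA lay under CUTs. CUT2002 covered 66.7% of *SNR17A* (165 in *rrp6*Δ and 88.9 in WT, ratio 1.84) and CUT2039 covered 96.5% of *SNR17B* (145 in *rrp6*Δ and 52.3 in WT, ratio 2.73). They were the only 2 of 56 small nucleolar RNA genes with a CUT on their strand, and 6 had one on the opposite strand. None of the 5 spliceosomal RNA genes had either. Because of the filter, these counts do not show how often such genes have unstable transcripts. Because these libraries were selected for poly(A), coverage of RNAs that normally lack a tail depends on how much of each RNA was polyadenylated as well as on how much there was, and these cannot be told apart here.

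Of 233 transfer RNA genes, 28 lay at least in part under a CUT on their own strand, 21 of them completely, and 2 under a CUT on the opposite strand. The 28 CUTs had coverage of 3.62 to 67.3 in *rrp6*Δ, with a median of 11.3, and of 0.29 to 9.37 in WT, with a median of 2.19, and their ratios ran between 1.95 and 8.65. The highest was CUT1980 over *SUF2*, a proline tRNA gene, with 67.3 in *rrp6*Δ and 6.90 in WT. Noncoding RNAs with a name in the annotation lay at least in part under same-strand CUTs for 8 of 25 genes, 2 of them completely. The most covered was *SRG1*, an RNA transcribed across the promoter of the serine biosynthesis gene *SER3*. CUT2005 covered all of *SRG1* and the first 29.4% of *SER3*, with 191 in *rrp6*Δ and 81.3 in WT (ratio 2.33). Ty elements were touched only at their edges, by 6 CUTs for 41 elements. For 328 long terminal repeats there were 40 overlapping CUTs, and for 297 origins of replication 69. An overlap of 1 bp was enough for these counts and those of RNA genes. For scale, the 1724 CUTs add up to 934 kb, and both strands of the 14 chromosomes to 20137 kb. Whether any of these classes differs from the genome at large was not tested. Reads had to map uniquely, and the part of mapping in the counts for repeated elements was not tested.

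Introns and genes of ribosomal proteins were among the most covered CUTs, and introns were examined after these values had been seen. CUT2010 covered the whole of *RPL18B*, a gene of the large ribosomal subunit, exons and intron, with 368 in *rrp6*Δ and 125 in WT, a ratio of 2.92. For *RPS14B*, which encodes a small subunit protein, CUT2009 (chrX:73722-74256) took in the whole intron of 408 nt and ended 52 nt past it, with 356 in *rrp6*Δ and 57.6 in WT (ratio 6.09). For *RPS9A*, another small subunit protein gene, CUT2004 began at base 2 of the intron of 501 nt and ended 26 nt past it, with 177 in *rrp6*Δ and 32.1 in WT (ratio 5.37). *DBP2*, which encodes an RNA helicase, had a CUT inside its intron at lower coverage. CUT1917 began at base 195 of the intron of 1002 nt, covered 80.5% of it and ended 1 nt before its last base, with 26.1 in *rrp6*Δ and 5.30 in WT (ratio 4.31). The meiotic genes *HOP2* and *MND1* each had a CUT across their short introns and into the exons, CUT1691 with 12.7 in *rrp6*Δ and 1.89 in WT, and CUT1259 with 7.14 in *rrp6*Δ and 1.19 in WT. Of 228 introns, 9 were touched by a same-strand CUT and 6 (2.63%) were covered over at least 50%. From the opposite strand, 13 were covered to that extent. For scale, 40 CUT-ORF pairs over the 5010 ORFs reached 50% of the ORF in sense. In antisense, 8.22% of ORFs were covered over at least 50%. Whether introns differ from ORFs in these shares was not tested.

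After the ribosomal protein genes, the highest coverage of a sense CUT over at least 50% of an ORF was at *NAB2*. CUT2000 covered all of *NAB2*, which encodes a nuclear poly(A)-binding protein, with 157 in *rrp6*Δ and 79.1 in WT, a ratio of 1.97 just below 2. CUT1986 covered all of *NRD1*, with 81.1 in *rrp6*Δ and 26.05 in WT (ratio 3.04). CUT1993 covered 58.4% of *TAD2*, which encodes a tRNA adenosine deaminase subunit, with 100 in *rrp6*Δ and 44.6 in WT (ratio 2.22), and CUT1991 all of *YPL245W*, with 91.1 in *rrp6*Δ and 40.4 in WT (ratio 2.22). In 40 of the 62 sense pairs at least 50% of the ORF was covered. At such genes a longer or more stable mRNA and a separate unstable transcript cannot be told apart from coverage. Genes with more than 1 coding part made up 8.06% of the 62 ORFs and 5.17% of all 5010.

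Nucleotide synthesis genes had prominent CUTs in front of them. *URA2* encodes the enzyme of the first steps of pyrimidine synthesis. CUT2006 (chrX:172700-173086) lay on the *URA2* strand and ended 333 bp before its start codon, with 228 in *rrp6*Δ and 11.9 in WT, a ratio of 17.7. Its 30-base window above has 3 copies of TCTT. *IMD2* encodes an IMP dehydrogenase of guanine nucleotide synthesis, and CUT1979 began 258 bp upstream of it and reached into the first 5.34% of the ORF, with 64.5 in *rrp6*Δ and 9.62 in WT (ratio 6.16). *ADE12* encodes adenylosuccinate synthase, and CUT1974 began 452 bp upstream and ended before the ORF, with 54.4 in *rrp6*Δ and 15.8 in WT (ratio 3.31). The last 100 bases of CUT1974 hold 8 of the motifs, 5 of them in the window printed above. *URA8* encodes a CTP synthase, and CUT1821, beginning 188 bp upstream, had 16.9 in *rrp6*Δ and 3.48 in WT. In the list of 29 purine and pyrimidine genes, 19 could be used, of which 9 had any CUT relation (47.4%, against 35.2% of all ORFs). In 3 of them, *IMD2*, *ADE12* and *URA8*, it was upstream (15.8%, against 4.91% of all ORFs). *URA2* is not among the 9, because CUT2006 began beyond the distance limit of the upstream relation and stood in no relation to a gene. The list had been drawn up with the study's own examples in view. The related *IMD3* lies in the end of chromosome XII that cannot be XIII, and CUT1998, upstream of it, had 138 in *rrp6*Δ and 25.3 in WT (ratio 5.27).

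The largest ratios were not at the most covered CUTs alone. Outside the label chrXII the largest was 27.8, at CUT2003 (chrXI:571084-571241), a CUT of 158 nt with 169 in *rrp6*Δ and 5.14 in WT. It lies between *BET3*, a gene of the TRAPP vesicle tethering complex on the same strand 175 bp downstream, and *MET1*, a gene of siroheme synthesis on the other strand 371 bp away. Next was CUT1953 (chrXIV:500510-500841), with 36.9 in *rrp6*Δ and 0.98 in WT (ratio 19.1), which begins 254 bp downstream of the ribosomal protein gene *RPL9B* on its strand. CUT1865, divergent to the asparagine synthetase gene *ASN2*, had 20.1 in *rrp6*Δ and 0.42 in WT (ratio 14.9). The largest ratio of all, 29.5, belonged to CUT2008 of the label chrXII, with 298 in *rrp6*Δ and 9.11 in WT, whose chromosome could not be settled.

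The smallest ratio was at CUT1997, in the end of chromosome XII over *RPL31B*, a large subunit protein gene. It had 128 in *rrp6*Δ and 129 in WT, a ratio of 0.99, and was the only CUT with lower coverage in the mutant, by about 1 unit. Outside the label chrXII the smallest ratios were 1.83 at CUT1257, antisense to the transcription factor gene *ERT1* (7.12 in *rrp6*Δ and 3.43 in WT), 1.84 at CUT2002 over U3 and 1.85 at CUT1971 over the end of *RRN3*, a gene of RNA polymerase I transcription (50.8 in *rrp6*Δ and 27.0 in WT).

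The longest CUTs ran across neighboring genes at low coverage, with exceptions. CUT2040 (3558 nt) was antisense to *DOT6*, a transcriptional repressor gene, and *PTC2*, a protein phosphatase gene, with 2.98 in *rrp6*Δ and 0.64 in WT. CUT368 (3332 nt) was antisense to *RNH201*, a ribonuclease H2 subunit gene, and *LAT1*, a pyruvate dehydrogenase subunit gene, with 3.12 in *rrp6*Δ and 0.63 in WT. CUT749 (3289 nt) was antisense to *JIP4* with 4.40 in *rrp6*Δ and 1.12 in WT. CUT1973 (4189 nt), antisense to *CSS1* near an end of chromosome IX, was higher, with 52.7 in *rrp6*Δ and 25.3 in WT.

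The longest of all, CUT1734 (4396 nt, chrII:469590-473985), covered *LYS2* in sense from end to end, with 13.7 in *rrp6*Δ and 0.072 in WT, a ratio of 13.7. By the labels *LYS2* was deleted in the WT strain and present in the mutant, so the genotype and the loss of Rrp6 cannot be told apart there. The difference in mating type has the same bearing on *ASG7*, a gene active in MATa cells, where CUT1564 ran in sense over 95.7% of the ORF with 10.3 in *rrp6*Δ and 0.74 in WT. CUT1420 and CUT950 were divergent to the a-specific genes *BAR1* and *MFA1*, with 8.63 and 5.28 in *rrp6*Δ and 0.13 and 0.051 in WT. *ASG7* also had CUT1533 in antisense, with 9.86 in *rrp6*Δ and 2.67 in WT. The alpha-specific gene *MF(ALPHA)2* had CUTs that were higher in the MATa mutant too, CUT1107 in antisense with 6.05 in *rrp6*Δ and 1.87 in WT, and CUT217 upstream with 2.63 in *rrp6*Δ and 0.059 in WT. No other mating-type or marker gene on the list (*RRP6* included) had a sense CUT, leaving aside *MET17* (*MET15*), which lies on chromosome XII and was not assessed. Loss of *RRP6* reads cannot be checked in an annotation of CUTs: no CUT lay over the *RRP6* ORF, and CUT1717, divergent to it, had 13.3 in *rrp6*Δ and 4.19 in WT. CUT39, upstream of it on its strand, had 2.12 in *rrp6*Δ and 0.11 in WT. The ORF beside both was replaced by KanMX in the mutant only. The altered locus and the loss of Rrp6 cannot be told apart at these CUTs.

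Some of the loci for which the study names a CUT follow, while most of those measured only by its RT-qPCR primers are not described. CUT1966 (chrXI:164896-166110) covered all of *NNR2* (YKL151C), a gene of nicotinamide nucleotide repair, in antisense, with 45.7 in *rrp6*Δ and 4.14 in WT (ratio 9.09). A second CUT on the gene's own strand, CUT1730, began 319 bp upstream, with 13.5 in *rrp6*Δ and 4.10 in WT (ratio 2.84). The study's primer pairs for this gene, aatgaccgtaccagcgttgt with acaggggcaccgtatttcag and ttggcctcctaccctcttgt with gcttgatcgcccaggaattg, match inside CUT1966 and span 93 and 131 bp. The primers for *SIF2*, a subunit gene of the Set3 deacetylase complex, agacgtttacctgcccatcc and tcaatcgtggatggtgtccc, span 94 bp inside CUT1397, which had 8.37 in *rrp6*Δ and 0.25 in WT (ratio 7.50).

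CUT1960 was divergent to *ERP2*, a gene of the secretory pathway, with 40.2 in *rrp6*Δ and 6.67 in WT (ratio 5.37). CUT1925 began 522 bp upstream of *LEU4*, the gene of the first step of leucine synthesis, with 27.6 in *rrp6*Δ and 3.43 in WT (ratio 6.44). CUT1566 was divergent to *OSH7*, an oxysterol-binding protein homolog gene, with 10.3 in *rrp6*Δ and 0.39 in WT (ratio 8.10). Long antisense CUTs crossed *MLS1*, a malate synthase gene (CUT1650, 11.7 in *rrp6*Δ and 1.65 in WT, 96.7% of the ORF), and *TKL2*, a transketolase gene (CUT1410, 8.51 in *rrp6*Δ and 1.38 in WT, the whole ORF). CUT358, 911 nt long and antisense to *TRF5*, a TRAMP poly(A) polymerase gene, had the lowest coverage of these, 3.08 in *rrp6*Δ and 0.10 in WT. CUT1410 also began 390 bp upstream of *LYS2*, on the opposite strand, and by the labels *LYS2* was deleted only in the WT. At CUT1410, too, the genotype and the loss of Rrp6 cannot be told apart.

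**Figure D5:**
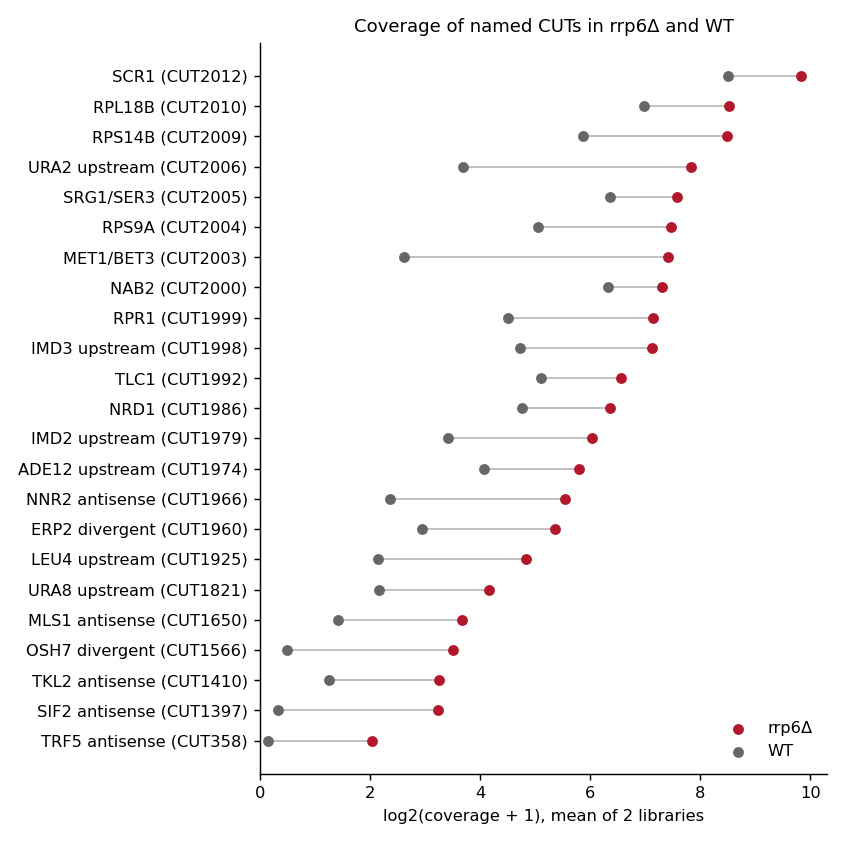
Points give log2(coverage + 1) in *rrp6*Δ (red) and WT (gray), as the authors' mean over 2 libraries, for 23 named CUTs ordered by *rrp6*Δ coverage. Every CUT shown is higher in *rrp6*Δ, and the gap between points is widest for CUT2003 (ratio 27.8), CUT2006 (17.7) and CUT1966 (9.09).

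The share of genes with a CUT beside them varied between gene groups. Any of the 4 relations (divergent, antisense, upstream or sense) applied to 35.2% of the 5010 ORFs. The counts below are small and were not tested. Among genes of phosphate uptake and storage, 13 of 20 had a CUT, 8 of them divergent, against 18.9% of all ORFs. The CUT of *PHO80* was CUT1717, which is also divergent to the deleted *RRP6*. The vacuolar polyphosphate synthesis genes *VTC2* and *VTC3* had the highest, CUT1937 with 31.4 in *rrp6*Δ and 4.80 in WT and CUT1887 with 22.2 in *rrp6*Δ and 6.11 in WT. CUT1856 crossed 45.7% of the acid phosphatase gene *PHO5* in antisense, with 19.1 in *rrp6*Δ and 5.66 in WT, and was divergent to the neighboring *PHO3*.

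Of the branched-chain amino acid genes 6 of 9 had a CUT, among them the leucine synthesis genes *LEU9* (CUT1780, 15.1 in *rrp6*Δ and 2.30 in WT) and *LEU1* (CUT1062, 5.83 in *rrp6*Δ and 0.54 in WT). Of the pentose phosphate genes it was 6 of 10, with CUTs upstream of *RPE1*, *TKL1* and *NQM1*.

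Glycolysis and fermentation genes had a CUT in 12 of 21 cases. In 6 (28.6%, against 4.91% of all ORFs) it began upstream on the gene's own strand, at *ENO1*, *GPM1*, *TDH1*, *TPI1*, *PGK1* and *TDH3*, which encode highly expressed enzymes of glycolysis. CUT1839 began 450 bp upstream of *ENO1*, with 18.2 in *rrp6*Δ and 1.97 in WT (ratio 6.47), and CUT1626 began 428 bp upstream of *GPM1*, with 11.3 in *rrp6*Δ and 0.80 in WT (ratio 6.82). The lowest of the 6 in *rrp6*Δ was CUT738, which began 269 bp upstream of *TDH3*, with 4.37 in *rrp6*Δ and 0.17 in WT.

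Cytosolic ribosomal protein genes had a CUT in 29 of 109 cases. Divergent CUTs stood at 20 (18.3%, against 18.9% of all ORFs), such as CUT1873 at *RPL25* with 20.7 in *rrp6*Δ and 1.37 in WT. Antisense CUTs stood at 3 (2.75%, against 13.5%), and the part of unique mapping in these counts was not tested. Among meiosis and sporulation genes, 13 of 38 had a CUT (34.2%, against 35.2% of all ORFs). For 8 genes it was in antisense (21.1%, against 13.5%). CUT1716 crossed 45.5% of the septin gene *SPR3* (13.3 in *rrp6*Δ and 0.52 in WT, ratio 9.41), CUT1645 crossed 29.1% of *IME1*, the master regulator of meiosis (11.7 in *rrp6*Δ and 0.39 in WT, ratio 9.09), and CUT1553 crossed 49.7% of *REC107*, a meiotic recombination gene (10.2 in *rrp6*Δ and 1.46 in WT). CUT1645 was also divergent to the neighboring *FIP1*, and CUT1553 to *ILV3*. These cells were growing vegetatively in rich medium.

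Termination and cleavage factor genes had a CUT in 9 of 21 cases. Besides *NRD1*, *REF2* and *PTI1*, both genes of the cleavage and polyadenylation factor, had upstream CUTs that were well covered in both genotypes, CUT1985 with 74.7 in *rrp6*Δ and 24.8 in WT and CUT1969 with 49.0 in *rrp6*Δ and 18.5 in WT. *PTI1* also had CUT1293 across its whole ORF in antisense, with 7.40 in *rrp6*Δ and 2.08 in WT. Exosome and TRAMP genes had a CUT in 6 of 18 cases (33.3%, against 35.2% of all ORFs). In 5 it was divergent (27.8%, against 18.9%), including *PAP2*, *RRP45* and *AIR1*. *RRP6* itself, replaced by KanMX in the mutant, is another of the 5, through CUT1717.

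Histone genes had a CUT in 6 of 11 cases. CUT1770, between *HTA2* and *HTB2*, stood in a relation to both (14.8 in *rrp6*Δ and 1.39 in WT, ratio 6.63), as did CUT701 to *HTA1* and *HTB1* (4.22 in *rrp6*Δ and 0.53 in WT). Heat shock and chaperone genes had a CUT in 9 of 17 cases. The highest, CUT1993 beside the ER chaperone gene *KAR2*, is the one that covers *TAD2*, and the next was CUT1958, divergent to the Hsp90 cochaperone gene *AHA1*, with 39.5 in *rrp6*Δ and 2.56 in WT (ratio 11.4). Ergosterol synthesis genes had a CUT in 6 of 13 cases, all 6 divergent (46.2%), and the highest was CUT1707 at *ERG7*, with 13.1 in *rrp6*Δ and 1.74 in WT. The tricarboxylic acid and glyoxylate cycle genes had a CUT in 9 of 20 cases, including CUT1798 across all of the isocitrate lyase gene *ICL1* in antisense, with 15.96 in *rrp6*Δ and 4.94 in WT. Of 17 genes chosen for known noncoding or attenuated control, 9 had one.

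Hexose transporter genes had a CUT in 2 of 17 cases (11.8%, against 35.2% of all ORFs), at *HXT1* and *HXT4*. Galactose genes had one in 1 of 5 cases (20%), at *GAL3*, and flocculation genes in 0 of 5. Groups of 5 genes are too small to be set against the share of all ORFs. Many flocculation and transporter genes belong to families of similar sequence, coverage here counted uniquely mapped reads only, and the part of mapping in these counts was not tested.

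The strand of a CUT was richer in Nrd1 and Nab3 core motifs than the strand opposite it. Over all 1724 CUTs there were 9.08 copies of GTAA or GTAG per kb on the CUT strand and 6.40 on the other strand. For TCTT it was 10.9 on the CUT strand and 5.97 on the other. Copies that overlap by a shared base, as in GTAGTAG or TCTTCTT, were both counted. GTAA and GTAG were more frequent on the CUT strand in 60.6% of CUTs and on the other strand in 25.8%, and TCTT in 66.8% and 22.3%. Base composition alone is unequal, with 32.1% T and 28.7% A on the CUT strand.

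The difference followed position relative to genes. Antisense CUTs had 12.1 TCTT per kb on the CUT strand and 4.91 on the other, and the noncoding strand of ORFs had 11.6, against 4.86 on the coding strand. Antisense CUTs also had 8.84 GTAA or GTAG per kb on the CUT strand and 5.52 on the other, and ORFs 8.42 on the noncoding strand and 5.31 on the coding strand. For the longer TCTTG antisense CUTs had 3.70 per kb on the CUT strand, against 2.76 on the noncoding strand of ORFs, and for GTAG alone 4.20, against 3.64. No test of these differences was made. Intergenic CUTs had 9.37 TCTT per kb on the CUT strand and 7.34 on the other, and 9.85 and 7.67 GTAA or GTAG per kb in the same order, where both strands of the 14 chromosomes average 8.13 and 7.22 per kb. Sense CUTs were poorer on the CUT strand in both motifs, with 7.20 TCTT per kb on it and 9.50 on the other, and 5.85 and 8.23 GTAA or GTAG.

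In the last 100 nt of CUTs, 60.6% held TCTT, against 42.9% on the other strand of the same window and 34.2% of ORFs in their last 100 nt. The ORF windows were read on the coding strand, which has 4.86 TCTT per kb against 11.6 on the noncoding strand. Antisense CUTs read the noncoding strand, so the ORF share is not a like baseline for them. GTAA or GTAG was found in 62.1% on the CUT strand, 46.7% on the other and 48.6% of ORFs. In the first 100 nt the shares were 56.0% for TCTT and 60.5% for GTAA or GTAG, against 46.9% and 48.1% on the other strand. A window of 30 bases with at least 3 motifs, as printed for CUT2006, CUT1821 and CUT1953, exists in 46.6% of CUTs, and one with at least 5, as in CUT1974, in 1.91%. The 25% of CUTs with the largest ratio had 11.4 TCTT per kb on the CUT strand and the 25% with the smallest had 10.21, and for GTAA or GTAG it was 9.39 and 8.56. A match to these letters does not show that a protein binds there.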

How the data were processed

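Per the study's methods and labels, the authors removed reads matching the rDNA repeat, mapped the others uniquely to the S288c genome (version 64) with up to 2 mismatches (Bowtie 0.12.7), and computed coverage per nucleotide (bedtools, 2.16.2 in the submitters' processing notes), corrected for first-base bias and mappability and scaled to the number of mapped reads. The deposited signal is this coverage, averaged by the authors over replicates and over each CUT. A hidden Markov model called CUTs on *rrp6*Δ/WT coverage. Spliceosomal, nucleolar and ribosomal RNAs and genotype hits were filtered, CUTs within 450 bp merged, and those of low coverage or under 100 nt dropped. Uncalled regions were not analysed here. The deposited fold column, the authors' own comparison, was not used.

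From the files, (*rrp6*Δ + 1)/(WT + 1) was computed, with a pseudocount of 1 that dampens low values. Printed starts are 1-based. CUTs were compared with the RefSeq R64 annotation in Python 3.11.15 with pandas 2.3.3. A CUT was antisense, sense or intergenic by at least 50% of its length. The geometry was tested on simulated intervals. The study lists mapped reads per library in its supplement, which were not used here, and no test was possible on pooled means. Members, gene lists and rules were chosen with earlier results of these data known. Genes named were the loci of the study, the top 5 CUTs by coverage, ratio and length, up to 4 genes per list, and the most covered sense ORFs and RNA genes. Introns, smallest ratios, the other genes with CUTs upstream in glycolysis and the CUTs labelled chrXII were added after their values were seen. 1 locus that the naming rule selects is not reported here.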

Additional observations from a re-analysis of the deposited data

How the results depend on the processing

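Of 58 alternative values for 16 results, 27 lay within the 95% interval over CUTs of the report's value (a spread between CUTs, not replicates) and 31 outside it. Each of the 3 differences in median log2 ratio, all near 0 in the report's setting, changed sign under some setting. Between strands, plus minus minus, it was -0.019 with a pseudocount of 1 and 0.020 with 0.1. The pseudocount mattered most. With 0.1 the median ratio was 6.55, 99.8% of CUTs reached a ratio of 2 and 78.8% a ratio of 4, and with 10 the values were 1.42, 10.3% and 0.925%. The difference in median log2 ratio between the longest and the shortest 25% of CUTs was -0.33 with 0.1, against 0.024 in the report's setting. Between antisense and other CUTs it was 0.37 with 0.1, -0.092 with 10 and 0.18 without the 25% of lowest *rrp6*Δ coverage, against 0.0096, so no order of these classes by ratio holds across settings. Without that 25% the median coverage was 7.16 in *rrp6*Δ and 1.03 in WT, the median ratio 3.70 and the share with a ratio of 4 or more 40.9%. Position shares followed their distance limits. Antisense CUTs made up 56.7% at an overlap of 25% of the CUT and 39.3% at 75%. Divergent CUTs made up 31.9% within 300 bp and 70.2% within 1000 bp, and 51.0% and 51.4% with the label chrXII placed on XII and on XIII. ORFs with a divergent CUT were 11.1% within 300 bp, 24.9% within 1000 bp and 9.46% counting only CUTs above the median *rrp6*Δ coverage. ORFs with an antisense CUT were 21.7% at 1 bp and 8.22% at 50% of the ORF, and those with an upstream CUT 1.28% within 300 bp and 8.78% within 1000 bp. Within 50 kb of chromosome ends there were 134 CUTs per Mb. GTAG alone was in 33.6% of first 100 nt windows and TCTTG in 22.2%, and TCTT was in 60.6% of last 100 nt windows.

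No paired analysis was possible because the files give each genotype as a mean over its 2 libraries, and for the same reason leaving out a library was not run. Whether either poly(A) selection method carries a value was not tested.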
